A study of Mus musculus with 4 samples.

Results

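Cholesterol efflux and LXR target genes were taken as 9 genes, Abca1, Abcg1, Mylip, Apoe, Npc1, Npc2, Soat1, Nceh1 and Lpcat3, found by symbol among the 17013 genes listed for mouse bone marrow-derived macrophages. All 9 were found. Wild-type macrophages grown with M-CSF from the marrow of male C57BL/6 mice were kept for 24 h on porous Transwell inserts, and every culture received artificial necrotic bone fluid (aNBF), made from freeze-thawed bone. In Con (2 libraries), the well under the insert held the fat control medium, which is the middle layer of a freeze-thawed abdominal fat preparation. In Fat (2 libraries), it held the high-fat-containing medium, the top layer of the same preparation, which reached the cells through the membrane. The study made this comparison to learn how taking up necrotic fat affects macrophage polarization. The age of the mice and whether the libraries came from separate mice or cultures are not stated in the sources used here, so the p-values measure the spread between these libraries.

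A macrophage that takes up lipid must keep its free cholesterol low. Cholesteryl ester that arrives in lysosomes is split, and the proteins NPC2 and NPC1 hand the free sterol out of the lysosome. The sterol is then either re-esterified by SOAT1 and stored in droplets, from which NCEH1 can release it, or exported by the transporters ABCA1 and ABCG1 to lipoproteins, with apolipoprotein E as an acceptor. Oxysterols and desmosterol bind the liver X receptors (LXRα, gene Nr1h3, and LXRβ, gene Nr1h2), which pair with RXR and induce Abca1, Abcg1, Apoe, Mylip and Lpcat3. Mylip encodes IDOL, a ubiquitin ligase that limits lipoprotein uptake, and Lpcat3 encodes an acyltransferase that puts polyunsaturated chains into phospholipids.

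The promoter windows of 3 LXR targets are shown because these genes stood in different positions in the comparison, Abca1 lower in Fat, Lpcat3 higher and Mylip not called. The windows run from 250 bases before to 50 bases after the start site on the gene's own strand, as given by RefSeq for build GRCm38.p6, while the submitters' processing notes name GRCm39 for the expression values. They lie at chr4:53159846-53160145 (minus strand) for Abca1, chr6:124662854-124663153 (plus strand) for Lpcat3 and chr13:45389492-45389791 (plus strand) for Mylip. Capitals mark matches on either strand to the E-box CACGTG, to the core promoter letters TATAAA and to the LXR response element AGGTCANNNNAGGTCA, the direct repeat called DR4, with at most 3 mismatches in its 12 fixed letters.
Abca1: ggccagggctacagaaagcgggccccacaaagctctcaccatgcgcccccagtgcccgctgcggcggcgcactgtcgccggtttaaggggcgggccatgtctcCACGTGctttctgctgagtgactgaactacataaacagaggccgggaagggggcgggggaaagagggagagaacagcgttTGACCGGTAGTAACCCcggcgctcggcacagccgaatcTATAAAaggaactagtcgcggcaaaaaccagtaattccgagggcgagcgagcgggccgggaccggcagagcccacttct
Lpcat3: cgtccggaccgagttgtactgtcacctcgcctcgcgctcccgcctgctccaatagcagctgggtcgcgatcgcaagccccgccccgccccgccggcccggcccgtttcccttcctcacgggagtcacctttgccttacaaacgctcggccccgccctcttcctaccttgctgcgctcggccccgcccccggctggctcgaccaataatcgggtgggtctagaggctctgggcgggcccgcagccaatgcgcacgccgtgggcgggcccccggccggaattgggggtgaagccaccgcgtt
Mylip: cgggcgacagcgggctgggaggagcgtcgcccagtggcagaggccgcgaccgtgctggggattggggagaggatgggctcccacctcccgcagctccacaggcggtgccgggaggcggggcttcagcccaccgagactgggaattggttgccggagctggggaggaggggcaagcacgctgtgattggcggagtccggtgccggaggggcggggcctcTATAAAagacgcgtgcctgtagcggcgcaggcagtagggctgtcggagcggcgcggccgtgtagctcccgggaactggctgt
In the Abca1 window, the reverse strand read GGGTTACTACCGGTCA between 67 and 52 bases before the start site, with 3 mismatches to DR4. Such a match stood in 21.9% of the 32851 windows of all genes, and one with at most 2 mismatches in 3.02%. The Abca1 window also held CACGTG, present in 7.15% of all windows, and TATAAA, present in 13.6%, and the 3 matches did not overlap. Of these motifs the Mylip window held TATAAA and the Lpcat3 window held none. Windows were given for 7 of the 9 genes and not for Abcg1 and Npc1, which were not searched. Among the remaining genes with a window, CACGTG stood in that of Nceh1 and TATAAA in 1 of the 3 of Apoe.

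The recovered depth lay between 33573852 and 40785872 reads per library, and each of the 9 genes had between 1322 and 384289 reads in every library, so that counting error alone was between 0.161% and 2.75% of a value. Reads that carry no molecular identifier are not independent molecules, so this covers counting error only. Levels are given in CPM, the reads of each library scaled to a common total. Macrophage markers were high in all 4 libraries. Over 9 markers they summed to 36415 and 34328 CPM in Con and 28894 and 27267 CPM in Fat. Lyz2, at 28720 and 26819 CPM in Con and 21516 and 20347 CPM in Fat, made up most of these sums. Lyz2 was not called (limma adjusted p = 0.209). Of these 9 markers, Fcgr1 and Mertk were called lower in Fat and 0 higher, where 5.0% of all genes tested were called lower. Mertk is also counted among the other LXR targets below. All 11 adipocyte markers were listed. Without Fabp4, which macrophages also express, they summed to 0.324 and 0.453 CPM in Con and 11.7 and 6.42 CPM in Fat, and 4 of the 11, Adipoq and Lep among them, had 0 reads in both Con libraries. Of the 3 adipocyte markers tested, Fabp4 among them, 2 were called higher in Fat and 0 lower, against 3.99% higher of all genes tested. The lowest value of any of the 9 cholesterol genes in a library was 35.2 CPM, for Mylip. Mean values were 37.3 CPM in Con and 41.9 CPM in Fat for Mylip, and 51.1 and 61.9 CPM for Lpcat3. T cell markers summed to 5.04 and 4.05 CPM in Con and 2.76 and 2.44 CPM in Fat, dendritic cell markers to 16.1 and 12.2 CPM in Con and 11.1 and 7.71 CPM in Fat, and neutrophil markers to 372 and 327 CPM in Con and 317 and 316 CPM in Fat. B cell markers summed to 23.5 and 22.5 CPM in Con and 17.98 and 21.8 CPM in Fat. Stromal markers summed to between 512 and 656 CPM with overlapping groups. Singly, 4 of the 5 stromal markers lay lower in Fat without overlap, against 26.2% of all genes tested. Of these 5, limma called 1 lower and DESeq2 called 0. Endothelial and erythroid markers summed to at most 1.18 CPM. The part of these cells in the results was not tested, and fewer cells of a type cannot be told apart from less RNA per cell in bulk libraries.

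Per length, in TPM (reads divided by gene length and then scaled within each library), Apoe stood far above the other genes. It ranked 7th of all 17013 genes, at 13878 and 13557 TPM in Con and 12991 and 16591 TPM in Fat. Npc2, the soluble lysosomal sterol carrier, followed at 1137 and 1085 TPM in Con and 986 and 866 TPM in Fat. Soat1 (241 to 283 TPM) and Nceh1 (204 to 246 TPM), which form and split cholesteryl ester, overlapped in range over the 4 libraries, but Soat1 was above Nceh1 within each medium. Npc1, the membrane partner of NPC2, lay between 86.7 and 104 TPM, which overlapped the range of Abca1, between 71.0 and 93.7 TPM. Within Con these 2 genes overlapped as well, whereas within Fat both values of Npc1 were above both values of Abca1. Abcg1 (57.2 to 78.5 TPM) overlapped Abca1 over all libraries, but within each medium both values of Abca1 were above both values of Abcg1. Lpcat3 (44.1 to 55.1 TPM) and Mylip (25.3 to 32.2 TPM) came last, without overlap with their neighbours. Even Mylip was above 73.7% of all genes in mean TPM.

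**Figure D1:**
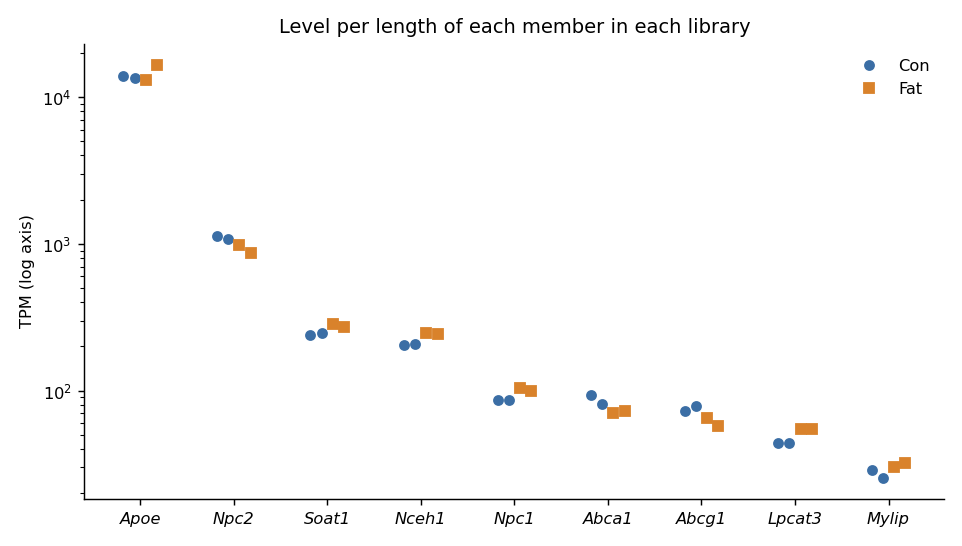
Level of each of the 9 genes in TPM (log axis) in each library, Con as circles and Fat as squares, ordered by mean level. Apoe, at 12991 to 16591 TPM, and Npc2, at 866 to 1137 TPM, stand above the others. The ranges overlap for Soat1 with Nceh1, for Npc1 with Abca1 and for Abca1 with Abcg1.

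Changes between the media were small and went in both directions within the pathway. Both efflux transporters were lower in Fat and Lpcat3 was higher, and the other 6 genes were not called. The test was limma's two-sided one on log2(CPM + 0.1). P-values were adjusted by Benjamini-Hochberg over the 12470 genes that reached 0.5 CPM in 2 or more libraries, all 9 genes among them, and a gene was called at an adjusted p-value under 0.05. Over all genes tested, 9.0% were called, 3.99% higher and 5.0% lower in Fat, against 3 of the 9 genes (1 higher, 2 lower). With TPM values limma called 2 higher (Lpcat3 and Nceh1) and 0 lower (3 lower at an unadjusted p-value under 0.05), with 6.34% of all genes called. On recovered reads, edgeR's quasi-likelihood test called the same 3 genes (9.13% of all genes), and DESeq2 (8.43%) and edgeR's likelihood ratio test (13.4%) called Npc2 and Nceh1 besides them. Without limma's mean-variance trend 0 of the 9 were called, and 3 were higher and 3 lower at an unadjusted p-value under 0.05 (0.249% of all genes called). Without Fat replicate 2, 0 of the 9 were called by limma (3 higher and 2 lower at an unadjusted p-value under 0.05), 1 without Con replicate 1 or Fat replicate 1 (Abcg1 in each) and 2 without Con replicate 2 (Abca1 and Lpcat3). The media did not overlap for 8 of the 9 genes (5 higher, 3 lower), against 55.6% of all genes tested (29.4% higher, 26.2% lower). The median of the absolute log2 fold changes was 0.22 for the 9 genes and 0.12 for all genes tested, and the median of the signed ones was 0.16 and 0.01. No gene of the 9 changed by more than 0.34 on the log2 scale, while the median size among all called genes was 0.49.

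**Figure D2:**
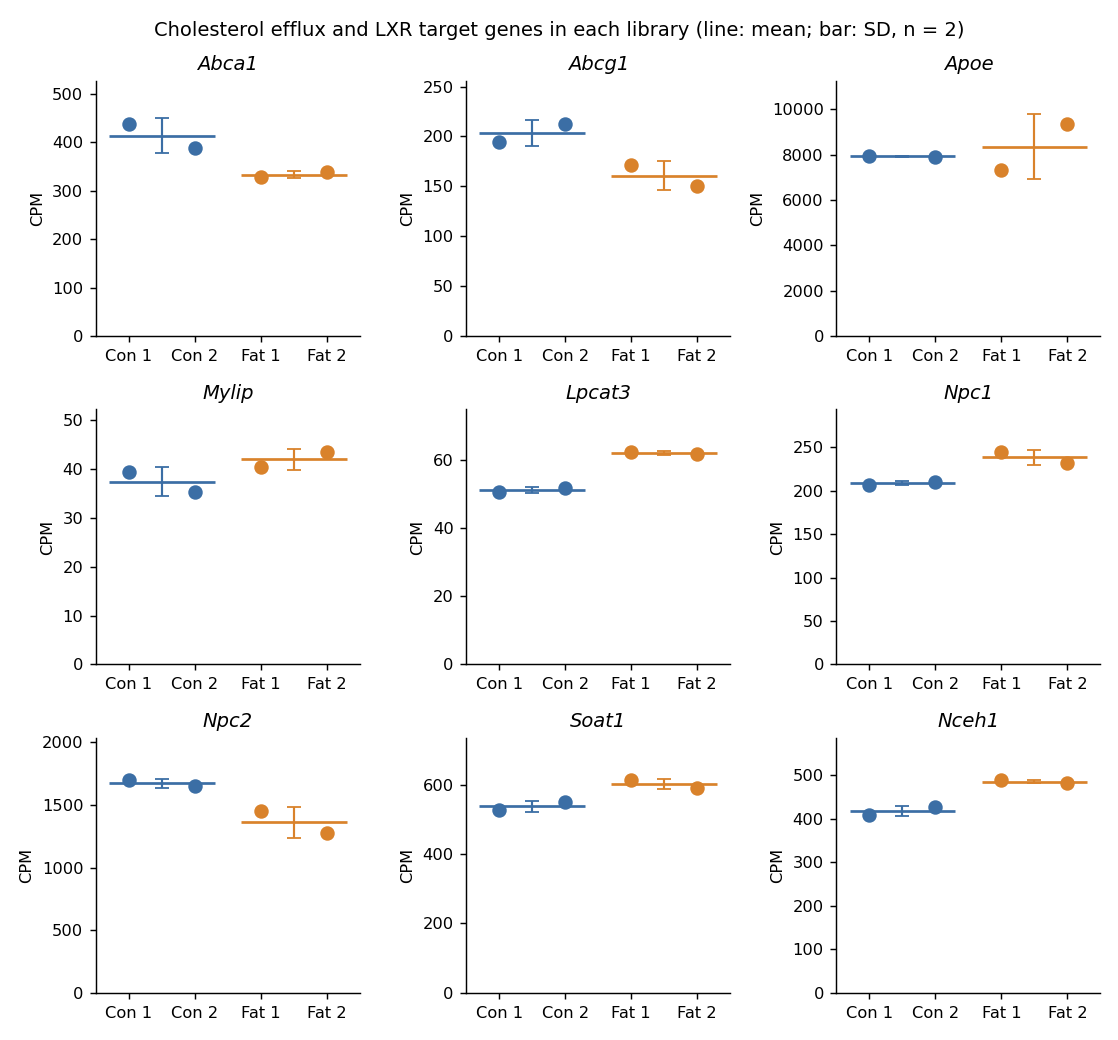
CPM of each gene in each of the 4 libraries, with a line at the mean and a bar for the SD (n = 2) of each medium; each axis starts at 0. The 2 Fat points lie below the 2 Con points for Abca1, Abcg1 and Npc2 and above them for Mylip, Lpcat3, Npc1, Soat1 and Nceh1, and Apoe alone overlaps.

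Abca1 encodes the transporter that loads cholesterol and phospholipid onto lipid-poor apolipoproteins. Con replicate 1 had 439 CPM and Con replicate 2 had 389 CPM, against 328 and 339 CPM in Fat. Both Fat libraries were below both Con libraries, and Con replicate 1 was the highest. The mean fell from 414 ± 35.7 CPM (SD, n = 2) to 334 ± 7.21 CPM (SD, n = 2), a log2 fold change of -0.31 (95% interval -0.47 to -0.14, limma adjusted p = 0.0385), or 1.24-fold lower. This call was near the threshold. Without Con replicate 1 the log2 fold change was -0.22 (limma adjusted p = 0.105), without Fat replicate 1 it was -0.29 (limma adjusted p = 0.107) and without Fat replicate 2 it was -0.33 (limma adjusted p = 0.0959), while without Con replicate 2 it was -0.40 and still called. With TPM values it was -0.28 (limma adjusted p = 0.0958).

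Abcg1, whose product exports cholesterol to mature high-density lipoprotein, fell to a like extent. Its values were 194 and 213 CPM in Con, against 171 CPM in Fat replicate 1 and 150.3 CPM in Fat replicate 2. The groups did not overlap, and the lowest value was that of Fat replicate 2. The log2 fold change was -0.34 (95% interval -0.53 to -0.16, limma adjusted p = 0.0371), 1.27-fold lower in Fat. It was -0.25 without Fat replicate 2 (limma adjusted p = 0.165) and -0.28 without Con replicate 2 (limma adjusted p = 0.0793), and the call was lost in both cases. With TPM values it was -0.31 (limma adjusted p = 0.0789). The TPM ratio of Abca1 to Abcg1 was 1.28 and 1.04 in Con and 1.09 and 1.28 in Fat, so it overlapped between the media (log2 difference 0.03, exact two-sided permutation p = 1). With 2 libraries against 2, such a test cannot give a p-value below 0.333.

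Apoe, the gene of apolipoprotein E, was at 7935 and 7904 CPM in Con and at 7333 CPM in Fat replicate 1 and 9373 CPM in Fat replicate 2. The Con libraries nearly coincided, and the Fat libraries lay on either side of them. The log2 fold change was 0.07 (95% interval -0.28 to 0.41, limma adjusted p = 0.832), and without Fat replicate 2 its sign turned (-0.11). The interval is wide enough to hold a change as large as that of Abca1 upward and nearly as large downward.

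Lpcat3, an LXR target outside export, rose. It was at 50.5 and 51.7 CPM in Con and at 62.2 and 61.5 CPM in Fat. Both replicates of each medium lay close together, and the gap between the media was far wider than that between replicates. The log2 fold change was 0.27 (95% interval 0.14 to 0.40, limma adjusted p = 0.0255), 1.21-fold higher in Fat. With 1 library removed it ranged from 0.26 to 0.29, but the adjusted p-value was 0.0884 without Con replicate 1, 0.0871 without Fat replicate 1 and 0.101 without Fat replicate 2 by limma. Of its annotated exonic bases, 10.2% overlap Emg1 on the opposite strand, and Emg1 had a log2 fold change of 0.02. Mylip was at 39.4 and 35.2 CPM in Con and at 40.4 and 43.4 CPM in Fat. Its Fat values were above its Con values by a narrow margin, and its log2 fold change of 0.17 (95% interval -0.01 to 0.35, limma adjusted p = 0.241) was not called.

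The 2 NPC genes stood on opposite sides. Npc1 was at 207 and 211 CPM in Con and at 245 and 232 CPM in Fat, and Npc2 was at 1696 and 1649 CPM in Con and at 1451 and 1275 CPM in Fat. For neither gene did the media overlap, with Npc1 above and Npc2 below its Con values in both Fat libraries. Neither was called by limma (Npc1, log2 fold change 0.19, 95% interval 0.06 to 0.32, adjusted p = 0.0765; Npc2, log2 fold change -0.30, 95% interval -0.50 to -0.10, adjusted p = 0.0760). On the recovered reads DESeq2 called Npc2 lower (adjusted p = 0.00609), and edgeR's quasi-likelihood test did not. The TPM ratio of Npc1 to Npc2 was 0.0764 and 0.0800 in Con and 0.106 and 0.114 in Fat, 1.40-fold higher in Fat with no overlap (exact two-sided permutation p = 0.333, the smallest that this design allows). It stayed between 0.43 and 0.55 on the log2 scale with each library left out in turn. Exons of Npc1 overlap those of Rmc1 on the opposite strand over 4.52% of their annotated bases, and Rmc1, listed under an older symbol, was called higher with a log2 fold change of 0.25.

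Both genes of the cholesteryl ester cycle had higher values in both Fat libraries. Soat1, which esterifies free cholesterol in the endoplasmic reticulum, was at 527 and 549 CPM in Con and at 612 and 591 CPM in Fat. Nceh1, a neutral hydrolase of cholesteryl ester, was at 409 and 427 CPM in Con and at 488 and 483 CPM in Fat. The log2 fold changes were 0.16 for Soat1 (95% interval 0.02 to 0.30, limma adjusted p = 0.153) and 0.22 for Nceh1 (95% interval 0.08 to 0.35, limma adjusted p = 0.0599), so neither was called. Nceh1 was called with TPM values (log2 fold change 0.25, limma adjusted p = 0.0437) and by DESeq2 (adjusted p = 0.0385). The TPM ratio of Soat1 to Nceh1 was 1.18 in both Con libraries and 1.15 and 1.12 in Fat, a log2 difference of -0.05 with no overlap (exact two-sided permutation p = 0.333).

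**Figure D3:**
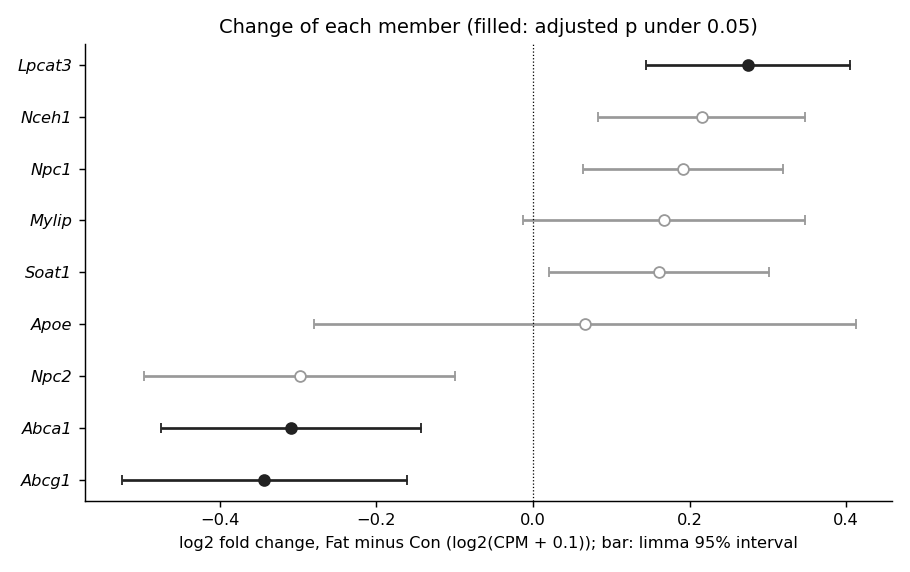
Log2 fold change (Fat minus Con) of each gene with its limma 95% interval, filled where the adjusted p-value was under 0.05. Abcg1 (-0.34) and Abca1 (-0.31) lie below 0 and Lpcat3 (0.27) above it, while the intervals of Apoe and Mylip include 0.

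The receptors themselves were not called. Nr1h3, the gene of LXRα, was at 19.8 and 19.3 CPM in Con and 19.0 and 18.3 CPM in Fat (log2 fold change -0.06, 95% interval -0.24 to 0.11, limma adjusted p = 0.649), and Nr1h2, the gene of LXRβ, was at 57.3 and 64.3 CPM in Con and 58.7 and 73.7 CPM in Fat (log2 fold change 0.12, 95% interval -0.14 to 0.37, limma adjusted p = 0.574). Of the 9 genes of LXR, RXR and their coregulators, 0 were called by limma, edgeR's quasi-likelihood test or DESeq2, and 1 was higher and 1 lower at an unadjusted limma p-value under 0.05. The enzymes that make or remove sterol ligands were 7, of which 4 passed the filter. Ch25h, which makes 25-hydroxycholesterol, was between 0.08 and 0.19 CPM and was not tested.

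Among 12 other LXR targets, 6 were called lower in Fat and 0 higher by limma, edgeR's quasi-likelihood test and DESeq2 alike, with 0 higher at an unadjusted limma p-value under 0.05, where 5.0% of all genes tested were called lower by limma. With TPM values 2 were called lower (Scd2 and Cd5l), and limma without the mean-variance trend called 0 (6 lower at an unadjusted p-value under 0.05). Their median log2 fold change was -0.18, against 0.01 for all genes tested, and earlier results of these data were known when the list was drawn up. Scd2 and Scd1, the desaturases that make monounsaturated fatty acids, had log2 fold changes of -0.59 (limma adjusted p = 0.00440) and -0.46 (adjusted p = 0.0243). Cd5l, a secreted survival protein of macrophages, had one of -0.57 (limma adjusted p = 0.0144), and Mertk, a receptor for apoptotic cells, one of -0.31 (adjusted p = 0.0289). The remaining calls were Arl4c and Fasn. With limma and 1 library removed, 2 of the list were called lower without Con replicate 1, 3 without Fat replicate 2 and 4 without either of the others, Scd2 and Cd5l in every case. Srebf1, the LXR target that drives fatty acid synthesis, was at 50.2 and 58.2 CPM in Con and 53.5 and 64.4 CPM in Fat, with overlapping groups (log2 fold change 0.12, limma adjusted p = 0.537). The list thus held genes that fell together with Abca1 and Abcg1 and genes, such as Srebf1 and Lpl, that were not called.

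Other steps of the pathway were mostly not called. For further proteins of efflux, 0 of the 6 tested genes were called by limma, edgeR's quasi-likelihood test or DESeq2, and 1 was higher at an unadjusted limma p-value under 0.05. That gene was Scarb1, which encodes a receptor for high-density lipoprotein (96.2 and 101.7 CPM in Con, 108.3 and 108.6 CPM in Fat, log2 fold change 0.13, limma adjusted p = 0.195). Of 16 tested genes of lysosomal release and sterol transport, 2 were called higher and 0 lower (2 lower at an unadjusted limma p-value under 0.05, and 0 by edgeR's quasi-likelihood test or DESeq2). Gramd1b, a carrier of plasma membrane cholesterol to the endoplasmic reticulum, rose by 0.47 on the log2 scale (limma adjusted p = 0.0160), and Scarb2, a lysosomal membrane protein, rose by 0.31 (adjusted p = 0.0255), the latter not called without Con replicate 2 or Fat replicate 1. Lipa, the lysosomal acid lipase, was high and alike in both media, at 3632 and 3758 CPM in Con and 3825 and 3854 CPM in Fat (log2 fold change 0.06, 95% interval -0.16 to 0.27). Of 3 tested enzymes of cholesteryl ester turnover other than Soat1 and Nceh1, 0 were called by limma, edgeR or DESeq2, nor at an unadjusted limma p-value under 0.05.

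The relatives of Lpcat3 did not all move with it. Of 7 other lysophospholipid acyltransferases tested, 1 was called higher and 2 lower. Agpat3 rose from 73.1 and 77.9 CPM to 106 and 108.7 CPM (log2 fold change 0.51, limma adjusted p = 0.00447), and Lpcat2, which makes platelet-activating factor and its precursors, fell from 77.4 and 58.9 CPM to 44.3 and 43.4 CPM (log2 fold change -0.62, adjusted p = 0.0205). Lpcat1 had a log2 fold change of -0.28 (limma adjusted p = 0.0369) and lost its call whichever library was left out, whereas Agpat3 and Lpcat2 kept theirs. With TPM values Agpat3 alone was called among these 7. The SREBP2 pathway senses low sterol and drives cholesterol synthesis. Of its 24 tested genes, 1 was called higher and 3 lower, with a median log2 fold change of -0.13. At an unadjusted limma p-value under 0.05, 3 were higher and 11 lower. The media did not overlap for 4 higher and 15 lower genes of the 24, against 29.4% higher and 26.2% lower of all genes tested. Dhcr7, which makes cholesterol from 7-dehydrocholesterol, was the one called higher (log2 fold change 0.46, limma adjusted p = 0.0114). Among the genes called lower were Fdps (log2 fold change -0.32, limma adjusted p = 0.0183) and Pmvk (-0.33, adjusted p = 0.0305), early enzymes of the same route. Without Fat replicate 2 only Dhcr7 was called in this list, and Pmvk lost its call whichever library was left out. Of all genes tested, 9.0% were called (3.99% higher, 5.0% lower). Over all 80 tested genes of the pathway lists, 4 were called higher and 11 lower, which is 18.8%. The number called lower was 5 without Con replicate 1, 7 without Con replicate 2 or Fat replicate 1, and 4 without Fat replicate 2.

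**Figure D4:**
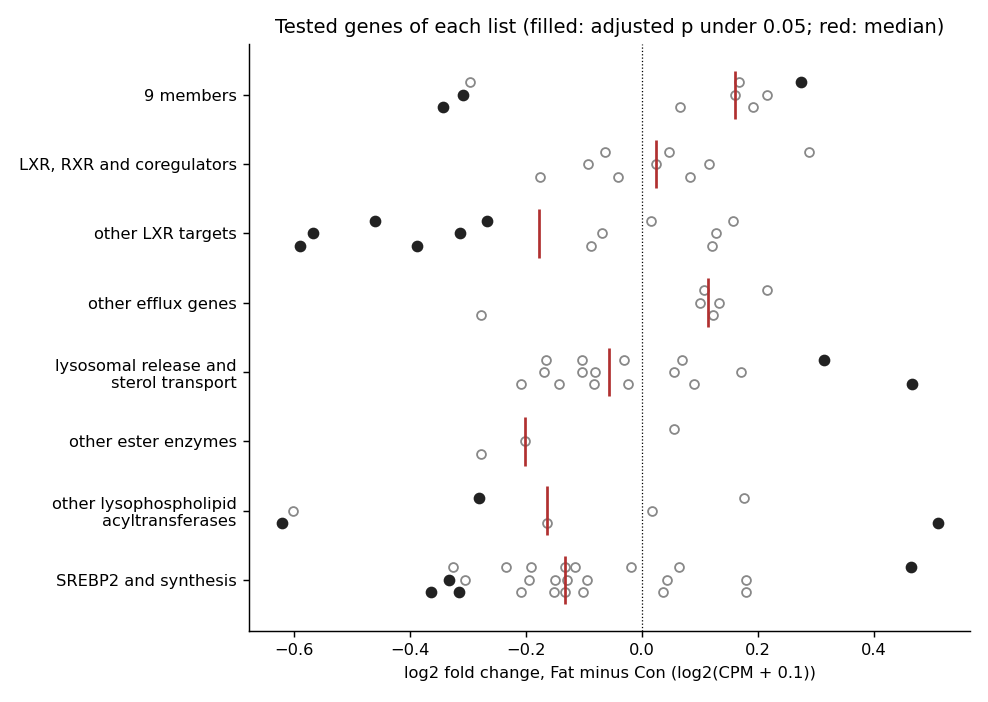
Log2 fold change (Fat minus Con) of each tested gene in the 9 cholesterol efflux and LXR target genes and in other lists of the pathway, filled where the adjusted p-value was under 0.05, with the median of each list as a red line. The other LXR targets hold 6 filled points, all below 0, while the receptors and the other efflux genes hold none.

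The 5 genes whose levels over the 4 libraries ran closest to those of Abca1, measured as the root mean square distance of log2(CPM + 0.1) centred on each gene's mean, were Mad2l2, Tmem243, Ccbe1, Nuak1 and Trim59, at distances between 0.0119 and 0.0244. The search covered 9759 other genes that averaged 5 CPM or more, and 4 libraries give such a likeness little weight. Within the cholesterol genes Npc2 was nearest to Abca1 (0.0946, with 677 genes nearer), then Abcg1 (0.137, with 2091 genes nearer). The other 6 lay between 0.225 and 0.302.

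**Figure D5:**
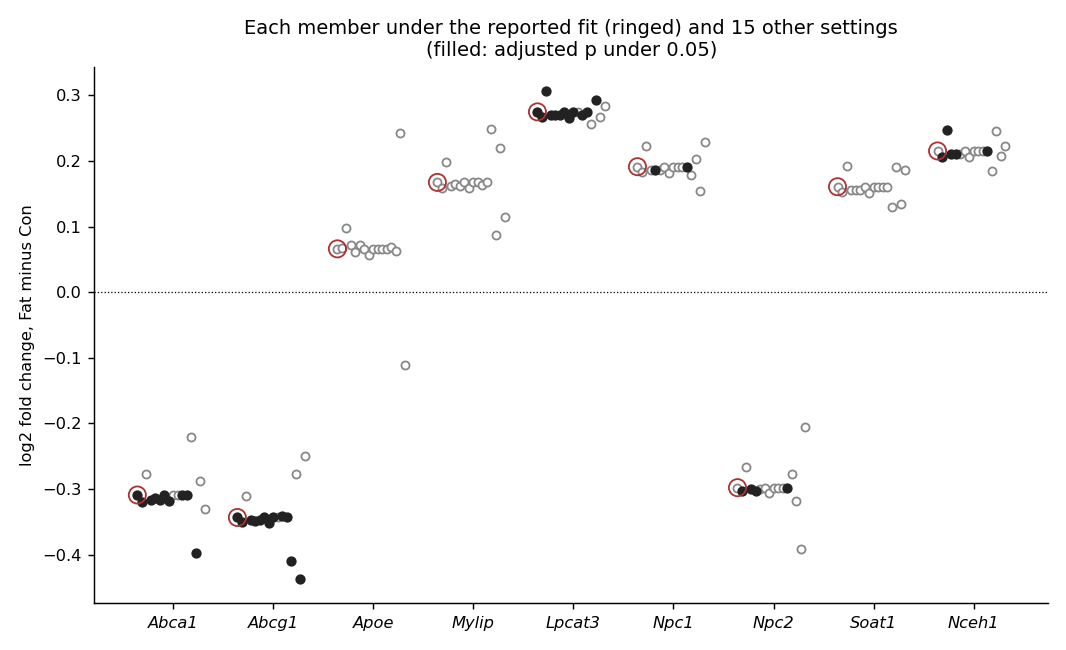
Log2 fold change (Fat minus Con) of each gene under the reported fit (ringed) and under 15 other settings of the analysis, filled where the adjusted p-value was under 0.05. Only Apoe crosses 0, without Fat replicate 2, and for the called genes Abca1, Abcg1 and Lpcat3 open points show settings in which the call was lost.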

How the data were processed

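Stranded poly(A) libraries, 2 from Con and 2 from Fat, were read from 1 end over 75 bases. The authors deposited CPM, reads scaled by library total and a further factor between 0.990 and 1.01, which equals edgeR's TMM factor. They also deposited TPM, reads divided by gene length and then scaled per library. The library scales of CPM and TPM thus differ, and a fold change can differ between them. The submitters' processing notes name GRCm39. The aligner, counting program, its strand setting and the annotation are not given in the sources used here, and symbols include older forms, so no coordinates are given for the expression values. Whole reads were recovered from CPM for 100% of the values (within 0.01 of a whole number). The 12470 genes with 0.5 CPM or more in 2 or more libraries were tested on log2(CPM + 0.1) with limma's trended empirical Bayes fit (limma 3.58.1, R 4.3.3), since CPM are not counts and the paper names edgeR without its test. On recovered reads edgeR 4.0.16 and DESeq2 1.42.0 were alternatives. The tests were checked on simulated counts. Other settings were a 1 CPM pseudocount, testing every gene, a minimum mean of 5 CPM, TPM, median-ratio scaling, no trend, the replicate number as a block, and each library left out.

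The 9 genes and all lists were chosen with earlier results of these data known. Named besides the 9 genes were Nr1h2, Nr1h3, Srebf1, Scarb1 and Lipa, up to 4 called genes per list and direction with the smallest adjusted p-value, and the 5 genes nearest to Abca1. Ch25h, Arl4c, Fasn, Lpl, Emg1, Rmc1, Lyz2, Fcgr1, Fabp4, Adipoq and Lep were named after their values were seen. Of 91 other pathway genes, 90 were listed, and some of them are not reported here by name. Stretches of 75 bases in GENCODE vM21 transcripts were compared exactly, and at most 7.49% of those of a gene of the 9 recurred in another gene. Promoter windows came from RefSeq. Python 3.11.15 was used with pandas 2.3.3, scipy 1.17.1 and matplotlib 3.10.9.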

Additional observations from a re-analysis of the deposited data

How the results depend on the processing

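All values are log2 fold changes of Fat against Con. Of 135 combinations of a gene of the 9 with an alternative, 109 kept the direction and the side of the threshold, 14 lost the call, 11 gained one, and 1 turned: Apoe, -0.11 without Fat replicate 2. Abca1 lost its call with TPM (-0.28), without a filter (-0.31, limma adjusted p = 0.0530, where more genes were tested) and without the mean-variance trend (-0.31), Abcg1 with TPM (-0.31) and without the trend (-0.34), and Lpcat3 without the trend (0.27); the cause was not tested. Npc2 was called by DESeq2, edgeR's likelihood ratio test and both fits with a block (-0.30 in each), and Nceh1 by DESeq2 (0.21), TPM (0.25), the likelihood ratio test (0.21), limma with the block (0.22) and edgeR's quasi-likelihood test with the block (0.21). Leaving out each library in turn gave -0.40 to -0.22 for Abca1, -0.44 to -0.25 for Abcg1, 0.26 to 0.29 for Lpcat3 and -0.11 to 0.24 for Apoe.

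The number of the 9 genes called higher was 1, and 2 with TPM, DESeq2 or the likelihood ratio test and 0 without the trend. The number called lower was 2, and 0 with TPM, 1 without a filter and 0 without the trend. With each library left out, 0 to 1 were higher and 0 to 1 lower. Over all genes, 498 higher and 624 lower became 366 lower with TPM, 943 lower with the likelihood ratio test, 19 and 12 without the trend, and 216 to 519 higher and 313 to 612 lower with a library left out. For the other pathway genes, 4 higher and 11 lower became 5 lower with TPM, 0 and 0 without the trend, and 3 to 4 higher and 4 to 7 lower with a library left out.

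The labels give the media the same replicate numbers but name no shared mouse or day, and the replicate 1 minus 2 differences of Con and Fat correlated at 0.20 over genes. With the replicate number as a block, limma called 3 of the 9 genes higher and 3 lower, Npc1 (0.19) among them, 1278 and 1242 of all genes, and 8 and 18 of the other pathway genes. edgeR's quasi-likelihood test with the block called 3 higher, Npc1 (0.19) among them, 1382 and 1394 of all genes and 8 and 21 of the other pathway genes. Among 24 further named genes and 360 combinations, 305 kept direction and side, 44 lost the call, 9 gained one and 2 turned without Fat replicate 2, Nr1h2 (-0.049, and 0.28 without Fat replicate 1) and Srebf1 (-0.013, and 0.25 without Fat replicate 1). Counting error was at most 2.75% for the 9 genes in any library.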
